A study of Xenopus laevis with 11 samples.

Results

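Of 7759 gene pairs with a copy on each subgenome of Xenopus laevis, 852 had an accessible region at an end of the L copy and none at the ends of the S copy. These 852 L copies held 1162 accessible regions at their ends, out of 58223 regions in the peak list. The pairs were chosen by measured accessibility. A pair was kept when at least 1 peak summit fell no farther than 1 kb from an end of its .L gene, and none did so at its .S gene. The difference between the copies at their ends was therefore fixed by the choice and is described without a test, as are the other accessibility values of these genes.

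The study measured chromatin accessibility by ATAC-seq in animal caps of wild-type X. laevis (strain label Xla.NXR-WTNXR). The animal cap is the roof of the blastula, explanted before its cells have left the pluripotent state. The labels name 11 libraries, 5 of stage 8 from 3 replicates and 6 of stage 9 from 4 replicates, with 2 caps per reaction, transposition for 1 h and 12 cycles of PCR. The values below come from 1 peak list in which the authors pooled the stage 9 libraries, so no value has a spread between replicates and stages could not be compared.

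X. laevis is an allotetraploid whose L and S subgenomes came from separate parental species, and most genes that survive in duplicate sit as homeologs on matching L and S chromosomes. In ATAC-seq the Tn5 transposase inserts adapters where DNA is free of nucleosomes. Promoters of active or poised genes and enhancers therefore give peaks, and housekeeping promoters tend to be open in every cell type. At the blastula stages maternal pluripotency factors open chromatin and the zygotic genome becomes active. A peak at an end of a gene can mark its promoter, its 3′ end or an element of a neighbor, and the gene table used here gives no strand to tell these apart.

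Among marker genes, only those of blood and liver stood apart. Of 23 annotated copies of ectodermal markers, 18 had a peak at an end and 21 had a peak inside or within 10 kb, against 0 of 7 copies of blood and liver markers by either measure. Mesodermal and endodermal regulators, which the cap does not express without induction, had a peak at an end in 13 of 16 copies. Inside or within 10 kb, 15 of the 16 had a peak. Peaks at these markers therefore did not set ectoderm apart from mesoderm and endoderm. Of 31 pairs of late organ genes, 27 had no end peak, so the blood and liver contrast does not single out the cap either. Coverage was shallow. The median summit of the list held 9 fragments and no called peak had fewer than 5, so a copy without a peak had no accessibility detectable at this depth and is not shown to be closed. In such pooled tissue, a site open in fewer cells and a site less open in every cell cannot be told apart.

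Pairs with an end peak at L alone made up 11.0% of all pairs (95% Wilson interval 10.3 to 11.7). End peaks at S alone made up 8.69% (674 pairs), end peaks at both copies 52.9% (4108 pairs), and 2125 pairs had none. L alone outnumbered S alone on 8 of the 9 chromosome pairs. The exception was pair 6, with 44 L-alone pairs (7.24%) and 48 S-alone pairs (7.89%). Pair 1 had the highest L-alone share, 12.8% (149 of 1166 pairs, interval 11.0 to 14.8%), beside 9.09% S alone (7.57 to 10.9%). Pair 3 had 11.6% L alone (9.74 to 13.8%) and 7.70% S alone (6.19 to 9.55%). L-alone and S-alone pairs numbered 108 and 81 on pair 2, 108 and 79 on pair 4, and 61 and 60 on pair 7. The intervals cover counting error only, and no difference by chromosome pair was tested.

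**Figure D1:**
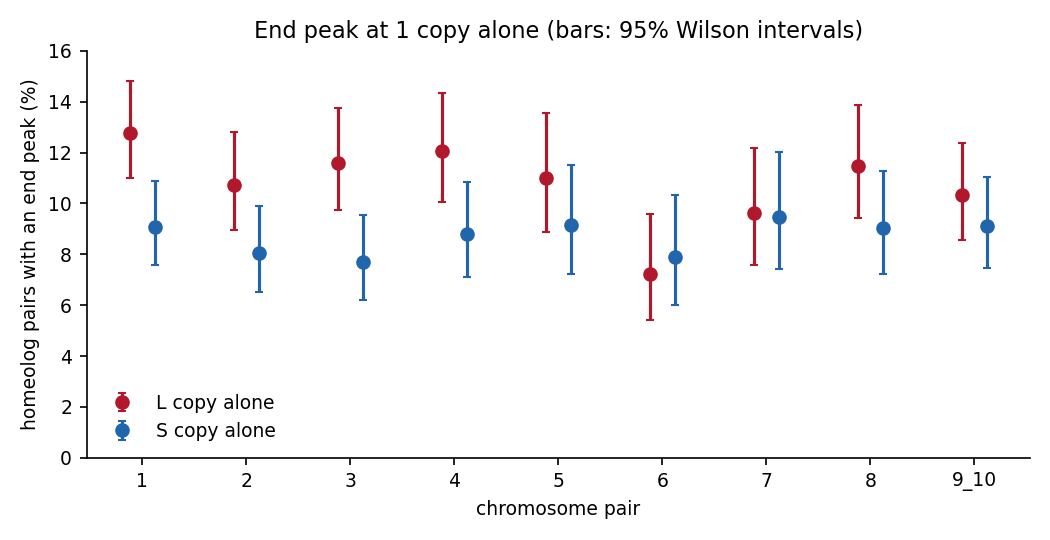
Share of homeolog pairs with an end peak at the L copy alone (red) or the S copy alone (blue), in percent, by chromosome pair, with 95% Wilson intervals that cover counting error only. L alone runs from 7.24% on pair 6 to 12.8% on pair 1 and lies above S alone on 8 of 9 pairs.

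The L-alone pairs were scattered along the chromosomes. When a pair was L alone, the next pair along the L chromosome was also L alone in 11.6% of cases, beside 11.0% over all adjacent pairs. Runs of 3 or more consecutive L-alone pairs occurred 12 times and the longest held 4 pairs. On 1L such a run joined gadd45b, gng7, slc39a3 and sgta, and on 9_10L another joined mcrip1, slc16a3, dus1l and gps1. Adjacent genes could also share a peak. Of the 1162 peaks, 155 also lay at an end of another gene. Among neighbors that belong to pairs themselves, 30 members shared a peak with another member, each sharing thus being counted from both sides. Another 12 members shared a peak with a gene that had end peaks at both copies. By the rule, a neighbor at a shared L peak can only fall in these classes. The genes hspd1 and hspe1, the mitochondrial chaperonin and its co-chaperonin, shared a peak of 12 fragments and 5.01-fold enrichment, and their S copies had no summit closer than 16631 and 10779 bp to their ends. The mitochondrial ribosomal genes mrps11 and mrpl46 shared one of 9 fragments, with nearest S summits at 185146 and 179177 bp.

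Most members had a single end peak. Of the 852 genes, 585 had 1 end peak, 212 had 2, 46 had 3 and 9 had 4. The median end peak was enriched 5.92-fold relative to the control (10th to 90th percentile 4.02 to 10.5), 10 fragments at its summit and a width of 175 bp. Over the whole list the median peak was lower, at 5.51-fold and 9 fragments. The strongest end peak of 596 members (70.0%) was at or above that median enrichment. That share was 85.7% for L copies in pairs with end peaks at both and 64.7% for S copies in S-alone pairs. Peaks at L copies whose S partner also had an end peak had medians of 6.98-fold, 12 fragments and 229 bp. End peaks at S alone had medians of 5.79-fold and 10 fragments, close to the L-alone values. Taking the strongest end peak of each gene, 31.9% of the 852 members (272) rested on 9 fragments or fewer, against 15.1% of the L copies in pairs with end peaks at both. The strongest peak reached a −log10 q-value of 10 in 245 members (28.8%), against 56.5% of L copies in pairs with end peaks at both. The peaks sat close to the annotated ends, at a median distance of 158 bp, and 650 of 1183 links between a peak and a gene were within 200 bp. Of these links, 685 were inside the gene and 498 outside it, and 45 genes had peaks at both ends.

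The strongest L end peaks belonged to genes of varied function, and the S copies differed in what lay beyond the 1 kb limit. The gene slc2a2 encodes the glucose transporter GLUT2. Its L copy carried the highest enrichment of any member, 26.0-fold with 47 fragments (5L, 118838537 to 118838863), at 100 bp from its end. Its S copy had a single peak within 10 kb, 8.06-fold and 3136 bp inside the gene, and within 50 kb the L copy had 9 distal peaks and the S copy 1. A distal peak is here a peak whose summit lies more than 1 kb from every end of any protein-coding or lncRNA gene, and counts within 50 kb take in the gene itself.

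The gene hes5.8, a Hairy/Enhancer-of-split repressor of the Notch pathway, had an L end peak of 23.8-fold and 38 fragments (7L, 104085962 to 104086284). Its S copy had its nearest summit 1730 bp from an end (3.86-fold), and each copy had 14 distal peaks within 50 kb. Stronger S peaks lay farther out, 13.1-fold at 14.7 kb below the lower-coordinate end and 10.7-fold at 7.32 kb above that end. The E3 ubiquitin ligase gene rnf112 had 4 end peaks at L, the strongest of 23.4-fold with 37 fragments (9_10L, 131519661 to 131520163). The strongest peak in or near its S copy was 4.37-fold. Around rnf112 the L copy had 10 peaks inside or within 10 kb and the S copy 1.

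For fzd3, a Frizzled receptor of Wnt ligands, the L end peak was 20.9-fold with 33 fragments (5L, 163875826 to 163876399). The S copy had a peak of 14.1-fold at 4458 bp inside its annotated end, which lay within 1 kb of another gene's end. At suox, the sulfite oxidase gene, an L end peak of 19.4-fold (2L, 144699171 to 144700088) stood beside an S peak of 15.4-fold at 6609 bp inside the gene. The S copy of ivns1abp, which encodes a Kelch-domain actin-binding protein, was annotated over 4870 bp and the L copy over 36539 bp. An S peak of 19.7-fold lay 9982 bp outside that shorter gene, as strong as the L end peak of 19.1-fold (4L, 110681160 to 110681737). In these 3 pairs an S peak of 14.1-fold or more lay beyond the window drawn at the annotated end.

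**Figure D2:**
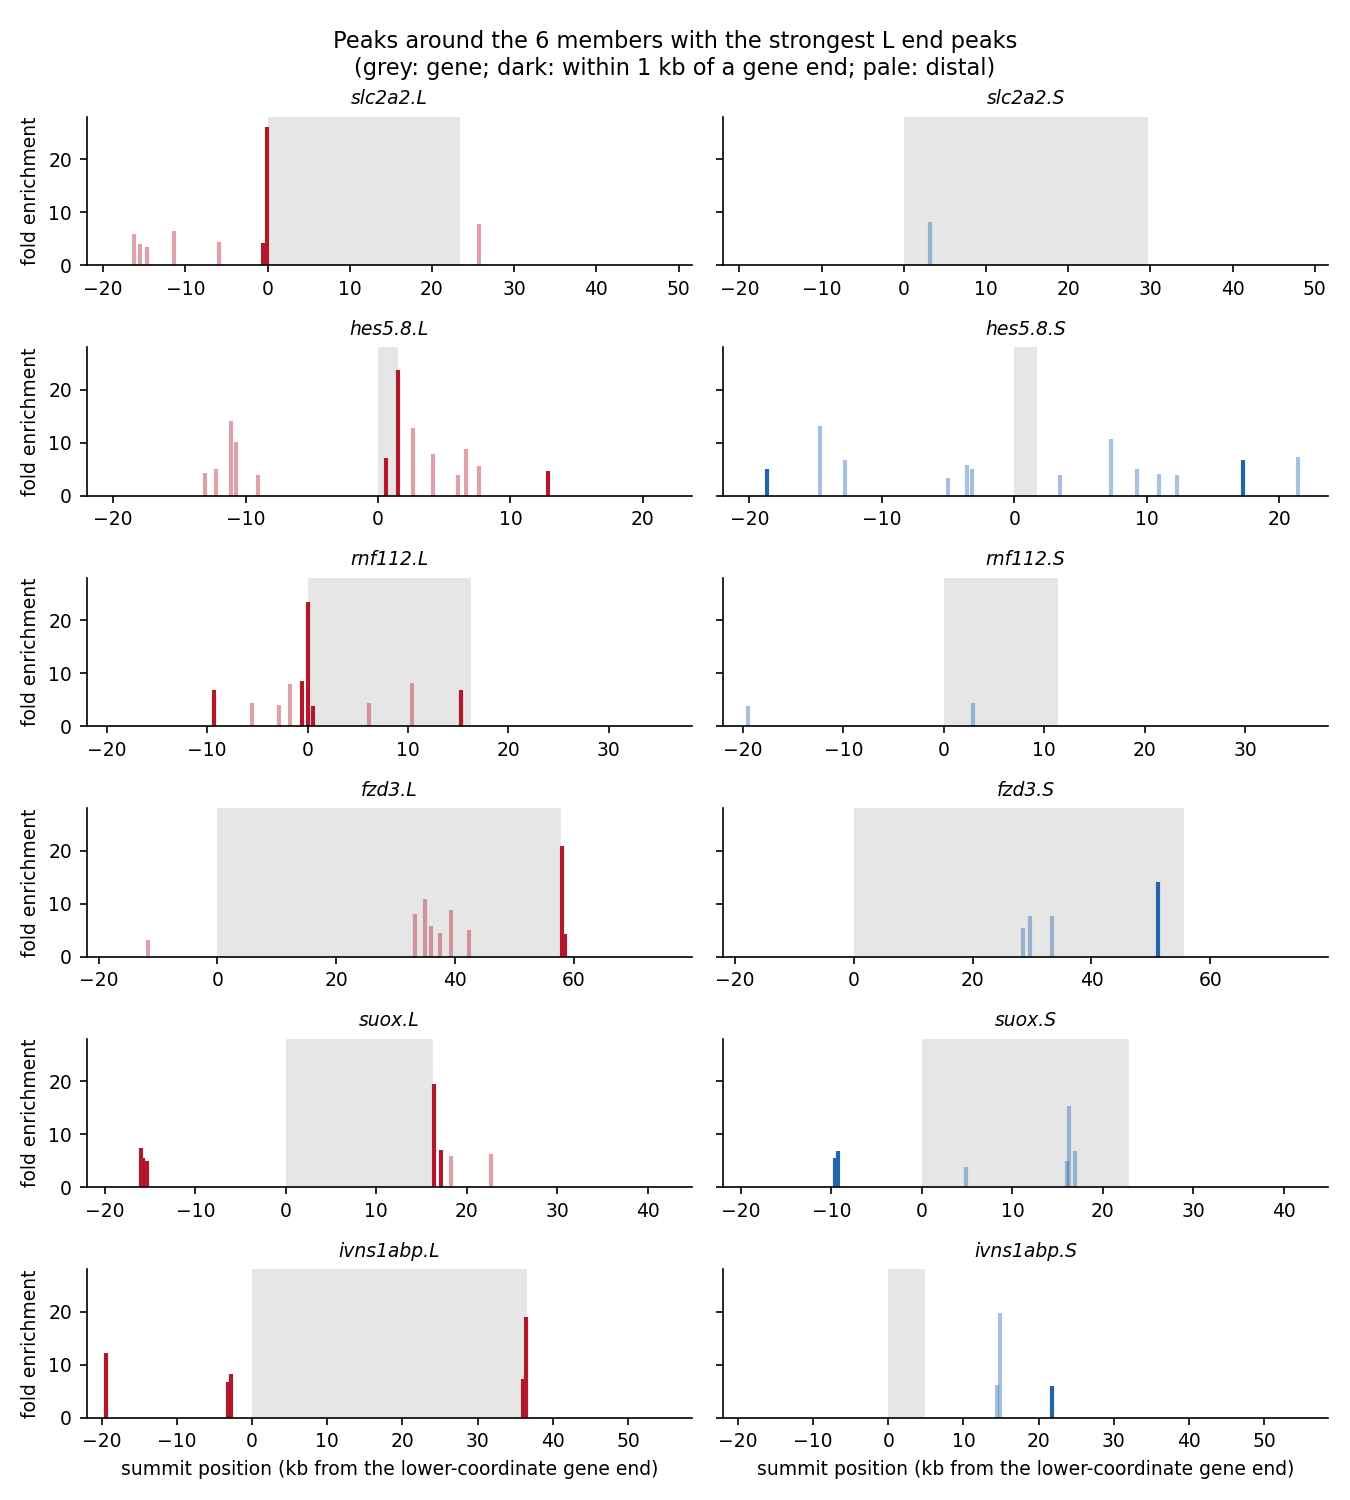
Peaks in and within 20 kb of the L copy (red, left) and S copy (blue, right) of the 6 members with the highest L end peaks. The x axis is the summit position in kb from the lower-coordinate end of the gene, drawn without regard to strand, and bar height is fold enrichment. Grey marks the gene, dark bars lie within 1 kb of an end of any gene and pale bars are distal. At suox, fzd3 and ivns1abp a tall S bar stands away from the annotated S ends, and at slc2a2 and rnf112 no S bar exceeds 8.06-fold. At hes5.8 the highest S bar is 13.1-fold, also away from the S ends.

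The members next in L enrichment showed the same range. At nck1, an SH2/SH3 adaptor gene, the S copy had a 13.1-fold peak at 2881 bp inside the gene beside the L end peak of 18.4-fold. At sh2b3, an adaptor gene that restrains cytokine signaling, the S copy had a 7.02-fold peak at 1147 bp inside the gene beside the L value of 18.8-fold. The genes hook1, whose product links cargo to dynein, and XB5864909 shared a single L peak of 17.8-fold (4L, 81165916 to 81166292). Both S copies were near a single peak of 11.7-fold, 1440 bp inside hook1 and 6845 bp outside XB5864909. The gene btg5.2 also reached 17.8-fold, with an S peak of 6.76-fold at 3181 bp. The gene fam214b stood apart from these. Its L copy had 3 end peaks, the strongest of 17.9-fold with 36 fragments (1L, 230572988 to 230573478), and 11 peaks inside or within 10 kb, while the nearest S summit was 177605 bp away. The fam214b copies were annotated over 30015 bp at L and 9717 bp at S.

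How often an S peak of at least the L enrichment lay outside the window was then counted over all members. This measure was chosen after these pairs had been seen. In 446 of the 852 pairs (52.3%) the S copy had a peak inside the gene or within 10 kb of it. The S peak was sought over this wide range and the L peak within 1 kb of the ends alone, so the search favors S. Any peak in that range was found for 59.2% of L copies of S-alone pairs and 36.2% of S copies of pairs with no end peak. Enrichment was not compared in other classes of pairs, so the enrichment shares that follow have no background. In 214 pairs (25.1%, 95% Wilson interval 22.3 to 28.1) the strongest such S peak was at least as enriched as the strongest L end peak. In 122 of these the S peak was distal and in 92 it lay at an end of another gene. Among the 245 members whose L end peak reached a −log10 q-value of 10, the S peak was at least as enriched in 24 (9.80%). Examples were fgfr3, an FGF receptor, at 16.9-fold for L and 17.0-fold for an S peak 4813 bp outside the gene, and clk2, a kinase of splicing factors, at 13.1-fold and 17.8-fold. At zbtb10, a zinc finger gene, the L end peak was 10.8-fold and an S peak of 32.0-fold lay 1392 bp inside the gene. In the other direction, 160 of the 245 (65.3%) had no S peak in this range that reached 0.5 of the L enrichment. Over all members this held for 445 of 852 (52.2%). The 245 were selected on a strong L peak, which by itself makes an S peak of similar enrichment rarer among them. Their shares are therefore not comparable with those of all members.

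Measured from the S ends, 86 of the S copies had a summit within 2 kb, and 27.8% had one within 5 kb, 45.3% within 10 kb (386 copies) and 83.0% within 50 kb. The median distance was 12150 bp. For the mirror class, L copies of S-alone pairs, the shares within 5, 10 and 50 kb were 36.1%, 52.4% and 88.1% and the median distance was 8727.5 bp. S copies of pairs with no end peak were farther from a summit, with a median of 20993 bp. The nearest S summits within 10 kb of the members had a median enrichment of 5.48-fold and 9 fragments. Both an L end peak at a −log10 q-value of 10 or more and an S copy with no peak inside or within 10 kb were found in 122 members. The strongest of them were fam214b, rassf2, a Ras-association gene, at 17.6-fold, and the orphan receptor gene gpr160 at 17.5-fold. They also included hes6.2, another Hairy/Enhancer-of-split gene, at 17.1-fold. Among the S copies far from any summit were lrfn5, a synaptic adhesion gene, at 435859 bp and oxtr, the oxytocin receptor gene, at 356084 bp.

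**Figure D3:**
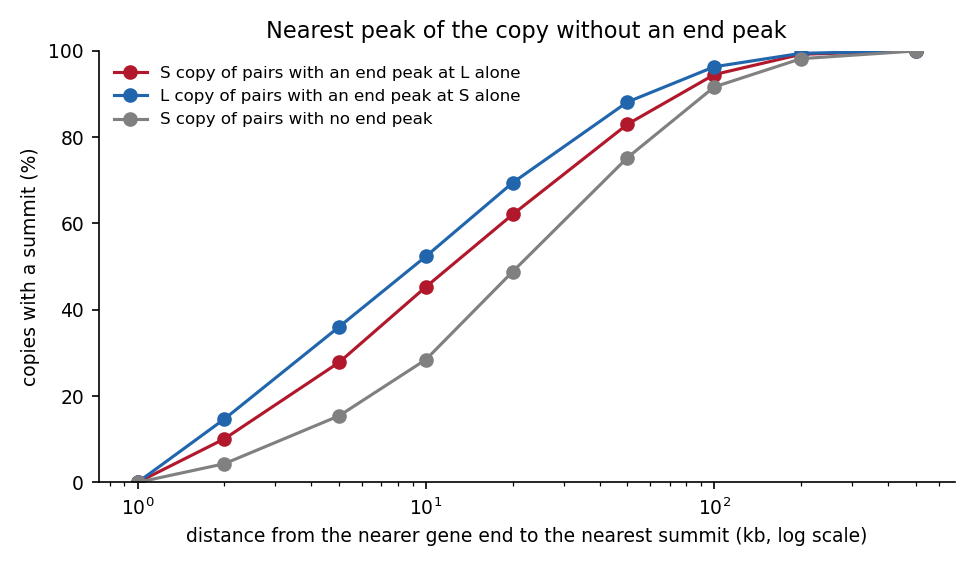
Cumulative share of copies, in percent, with a peak summit within a given distance (kb, log axis) of the nearer gene end. Red is the S copy of L-alone pairs, blue the L copy of S-alone pairs and grey the S copy of pairs with no end peak. All start at 0 at 1 kb by construction, and at 10 kb the red line is at 45.3% and the blue line at 52.4%.

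The members nearest the limit were rgs2.L, a regulator of G protein signaling, with its nearest summit at 973 bp (12.5-fold), wnt3a.L, a Wnt ligand gene, at 972 bp (4.30-fold) and ckm.L, the muscle creatine kinase gene, at 968 bp (6.18-fold). Just outside it were tbx6.L at 1005 bp, kcnk10.L at 1006 bp and ttll7.L at 1007 bp. On the S side, rnf208.S had a summit at 1004 bp, paqr6.S at 1006 bp and gpx2.S at 1009 bp, so these 3 pairs counted as L alone by less than 10 bp.

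Distal peaks around the members were more numerous at the L copies. Within 50 kb the L copies had a mean of 3.04 distal peaks and the S copies 2.28, and 414 members had more at L, 251 fewer and 187 the same number. More at L was also common elsewhere. It was found for 48.6% of members, 44.3% of all pairs and 46.6% of pairs with end peaks at both copies. Fewer at L was found for 29.5%, 33.4% and 34.1%. Within 10 kb, 37.8% of members and 37.5% of pairs with end peaks at both had more at L. The median difference within 50 kb was 0 for members and over all pairs. The mean difference, L minus S, was 0.76 for the members, 0.58 for pairs with end peaks at both copies, 0.28 for S-alone pairs and 0.47 over all pairs. The members' difference exceeded that of pairs with end peaks at both on 6 of 9 chromosome pairs. It was above 0 on all 9, from 0.10 on pair 7 to 2.18 on pair 8, where members had a mean of 4.83 distal peaks at L and 2.66 at S. Without pair 8 the members' difference was 0.59, and that of pairs with end peaks at both was 0.44. No distal peak at either copy was found for 84 members.

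Of the 10 members with most distal peaks at L, 5 lay on 8L, and 4 of these were neighbors that counted peaks in common. The enamel matrix gene tuft1 had distal peaks numbering 34 at L and 6 at S, and celf3, which encodes an RNA-binding splicing regulator of neurons, had 27 and 5. These genes are neighbors on 8L and 26 of the peaks were counted for both. The genes fpgs, for folylpolyglutamate synthase (17 and 9), and sh2d3c, an adaptor gene (16 and 11), shared 15. The guanine nucleotide exchange factor gene arhgef2 had 26 and 14, alpl, for alkaline phosphatase, 25 and 18, and the orphan nuclear receptor gene nr2f2 16 and 14. Pronounced imbalance was seen at p2ry2, a nucleotide receptor gene, with 21 at L and 3 at S over genes of similar length (30166 and 26427 bp). At hal.2, a histidine ammonia-lyase gene, the counts were 15 and 0, and at the endosomal SNARE gene vamp8 13 and 1. The L copy of tiam1, a Rac exchange factor gene, had 17 and the S copy 2, with annotated lengths of 228642 and 31618 bp.

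Some members had an end peak at L alone and more distal peaks at S. The largest such differences were at arfgap3, a GTPase-activating gene of the Golgi (4 at L and 18 at S), lrtm2 (3 and 16), the ribosome biogenesis gene rrp1b (7 and 18), the exchange factor gene arhgef3.2 (10 and 21) and ldlrad2 (3 and 13). At arfgap3 none of the 18 S peaks was inside the gene or within 10 kb. At arhgef3.2 the S copy held 8 summits inside the gene, the nearest 1147 bp from an end.

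**Figure D4:**
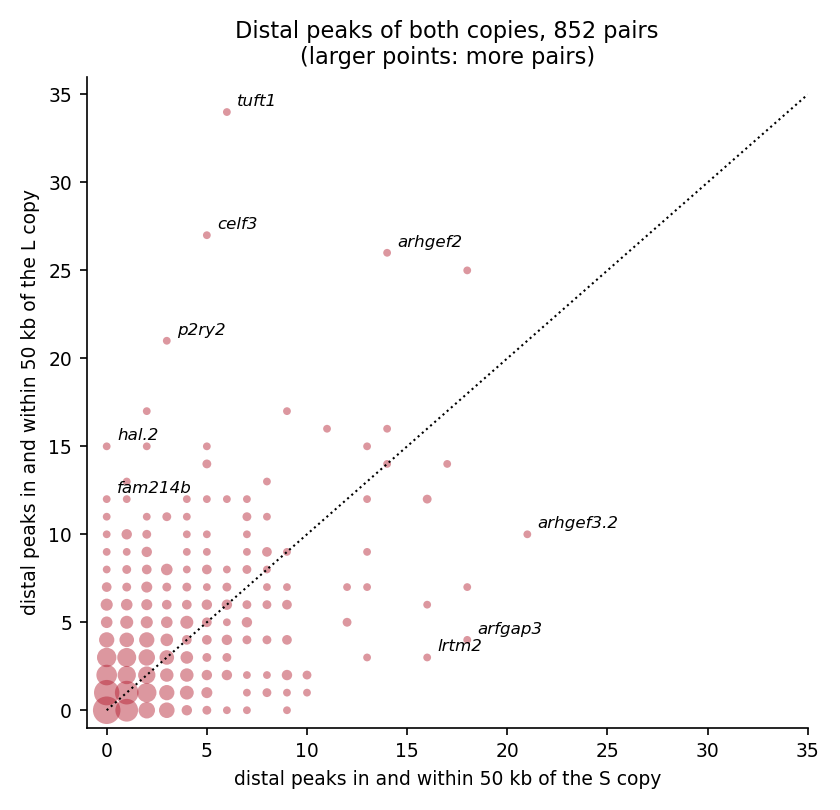
Number of distal peaks in and within 50 kb of the S copy (x) and L copy (y) for the 852 members, with larger points for more pairs and a dotted line at equality. Pairs above the line (414, 48.6%) outnumber those below it (251, 29.5%), with tuft1 (34 and 6) highest and arfgap3 (4 and 18) among the lowest right. Over all pairs the shares are 44.3% and 33.4%.

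Members with 4 end peaks were rnf112, clk2, rab5b, dhx37, pdgfb, adra2c, septin12, six6 and lrp4. The gene six6, a homeobox regulator of eye development, is short, at 3295 bp, and its L copy had 5 peaks inside or within 10 kb, the strongest of 7.06-fold. The S copy had none, and its nearest summit was 81281 bp away. The adrenergic receptor gene adra2c had 6 peaks at L and 0 at S over the same range, with the nearest S summit at 89642 bp. The growth factor gene pdgfb had 8 and 0, with the nearest S summit at 32931 bp. The endosomal GTPase gene rab5b differed from these. Its strongest L end peak was 10.7-fold, and a 15.4-fold S peak lay 6471 bp outside its S copy, which is the peak inside suox.S described above. The rab5b S copy had 7 distal peaks and the L copy 4.

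Gene functions were examined with lists of named genes, and with lists built from symbol prefixes, which take in a few genes of other function. Each L-alone count is to be read beside the 11.0% over all pairs, and each S-alone count beside 8.69%. No list was tested, since the members and lists were chosen with results of these data known.

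None of the 25 pairs of pluripotency regulators was L alone, which allows a share of up to 12.0% by the limit of 3 counts (95% Wilson upper limit 13.3%), while 17 had end peaks at both copies and 4 at S alone. Of 101 pairs of chromatin regulators 5 were L alone (4.95%, interval 2.13 to 11.1%), 10 were S alone (9.90%) and 80 had end peaks at both. The L-alone genes were sin3a, a corepressor scaffold (17.2-fold), bap1, a histone deubiquitinase (7.38-fold), smarcb1, a subunit of SWI/SNF remodelers (5.97-fold), kdm5c, an H3K4 demethylase (5.39-fold), and arid1b, another SWI/SNF subunit (4.38-fold). At sin3a the S copy had a 14.6-fold peak 12450 bp inside the gene. At kdm5c an S summit lay 1011 bp from the gene's end. For smarcb1 the S copy had no summit closer than 45443 bp.

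Among signaling pathways, 5 of 35 Wnt pairs were L alone (14.3%), 4 of 35 BMP and TGF-β pairs (11.4%), 3 of 37 FGF and MAPK pairs (8.11%) and 3 of 22 Notch pairs (13.6%). The Wnt members beside fzd3 and wnt3a were znrf3, a ligase that removes Frizzled receptors, dkk1, a secreted antagonist, and notum, which inactivates Wnt ligands. Their strongest L end peaks were 7.48-fold, 6.48-fold and 5.24-fold. For dkk1 an S peak of 6.31-fold lay 2024 bp inside the gene, about the L value. The BMP and TGF-β members were the ligand genes nodal1 (6.79-fold) and bmp7.2 (4.71-fold), the Nodal antagonist lefty (5.62-fold) and id4, a BMP target (4.37-fold). The gene bmp7.2 had 3 end peaks at L, and distal peaks numbering 10 at L against 1 at S. The S copy of nodal1 was annotated over 111792 bp and the L copy over 2532 bp.

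In the Notch list, rbpj, the DNA-binding effector of the pathway, had 3 end peaks at L, the strongest of 16.9-fold with 28 fragments. The nearest summit to the ends of rbpj.S was 16734 bp away and the S copy was annotated over 36926 bp against 68116 bp. The others were hes3 (10.2-fold) and mib2, a ligase acting on Notch ligands (7.74-fold), with nearest S summits at 3463 and 26265 bp. In the FGF list, dusp7, a phosphatase of ERK, had 3 end peaks at L, the strongest of 10.5-fold, and no S summit within 57335 bp. Its spans were also unequal, 50447 bp at L and 16776 bp at S. The docking protein gene frs2 had 10.0-fold at L and 6.48-fold at 7598 bp outside the S copy.

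Lists of lineage regulators had shares whose intervals included 11.0%. Of 44 neural and neural crest pairs 4 were L alone (9.09%, interval 3.59 to 21.2%) and 3 S alone. The L-alone genes were olig2 (12.5-fold), six6, ets1 (5.79-fold) and tubb2b (5.28-fold). The S copy of olig2, a regulator of motor neuron and oligodendrocyte precursors, had a 7.88-fold peak 1511 bp inside the gene. Of 29 ectodermal and epidermal pairs 1 was L alone (3.45%, upper limit 17.2%), the desmosomal gene pkp2, and 1 S alone. Of 39 mesodermal, endodermal and organizer pairs 1 was L alone (2.56%, upper limit 13.2%), the somite regulator tcf15, and 5 were S alone. Late organ genes had few end peaks at all, with 27 of 31 pairs at neither copy, and 2 were L alone, ckm and the troponin gene tnnc1 (4.30-fold, 6 fragments). Of 113 homeobox and PAX symbols 10 were L alone (8.85%, interval 4.88 to 15.5%), among them gsx1 (10.2-fold), pitx3 (9.17-fold), bsx (7.19-fold) and six6, each with no S summit inside the gene or within 10 kb. That list also took in islr2, which its prefix alone brought there.

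Membrane trafficking symbols had the highest L-alone share of the lists with 20 or more pairs, 27 of 152 (17.8%, interval 12.5 to 24.6%). In all, 43 lists were looked at, and the interval takes no account of that number. S alone was also above its share over all pairs, with 17 (11.2%), and 93 had end peaks at both. Only 9.87% of trafficking pairs had no end peak, beside 27.4% of all pairs. Of the 137 with an end peak, 19.7% were L alone (interval 13.9 to 27.2%), beside 15.1% over all 5634 such pairs. S alone made up 12.4%, beside 12.0%. By that measure ion channels (42.9%), neurotransmitter receptors (37.5%) and nuclear receptors (26.1%) were among the lists with higher L-alone shares. Those lists also had fewer pairs with end peaks at both (12.9%, 16.7% and 45.7%, beside 52.9% over all pairs). The L-alone trafficking genes included vps28 of the ESCRT machinery (15.4-fold) and the tethering subunits trappc12 (10.3-fold) and trappc1 (9.84-fold). Also among them were sec62 of the translocon (9.11-fold) and the sorting nexin genes snx30 (8.44-fold) and snx1 (7.99-fold). The S copies of sec62 and trappc12 had no summit closer than 71113 and 51388 bp. The list also held arl14ep, rab5if and sec14l3, which share a prefix and not the function.

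Of 55 cytosolic ribosomal protein pairs 6 were L alone (10.9%) and 5 S alone. The L-alone gene rpl29 (9.22-fold) had its nearest S summit at 67474 bp. Respiratory chain subunits had 4 of 52 at L alone (7.69%) and 9 at S alone, proteasome subunits and assembly factors 4 of 36 (11.1%) and 7, and mitochondrial ribosomal proteins 3 of 20 and 6. The strongest proteasomal member was psmg3, an assembly chaperone, at 15.7-fold. Of 63 cell cycle and replication pairs 8 were L alone (12.7%) and 3 S alone. They were the spindle checkpoint genes ttk (9.52-fold) and mad2l1 (5.37-fold), the cyclin genes ccnb3 (7.76-fold) and ccnd2 (6.31-fold), the replication genes mcm4 (6.80-fold) and rpa2 (6.48-fold), e2f4 (4.98-fold) and wee2 (4.92-fold). The S copy of mad2l1 had no summit within 182065 bp, and that of ttk had a 4.92-fold peak at 1328 bp.

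Zinc finger symbols of the znf and zbtb kind had 15 of 106 pairs at L alone (14.2%) and 5 at S alone, led by znf365 (16.3-fold), and protein phosphatase symbols 13 of 83 (15.7%) and 4, led by ppp2r3a (13.5-fold). Its S copy was annotated over 2048 bp and the L copy over 128804 bp. Nuclear receptors had 6 of 35 at L alone (17.1%, interval 8.10 to 32.7%) and 1 at S alone. These were rarb and thra, receptors for retinoic acid and thyroid hormone, nr2f2, vdr, esrrg and nr1i3, at 4.99-fold to 8.38-fold.

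In several large families the interval likewise included the 11.0% over all pairs. Ubiquitin system symbols had 21 of 185 pairs at L alone (11.4%), led by rnf112 and the RING finger gene rnf207 (12.0-fold). The end peak of rnf207.L also lay at an end of rpl22.L, whose pair had end peaks at both copies. Protein kinase symbols had 17 of 122 (13.9%), among them clk2, the JNK pathway kinase map2k7 (12.5-fold), the calcium-dependent kinase camk4 (10.3-fold) and the ephrin receptor gene epha7 (9.13-fold). The nearest S summits of map2k7, camk4 and epha7 were 62339, 64476 and 235943 bp from the gene, and each had 0 distal peaks within 50 kb of S against 4, 3 and 1 at L. Solute carrier symbols had 23 of 167 (13.8%), with the carboxylate transporter slc13a2 (12.3-fold) next after slc2a2. Subunits of Mediator, general factors and RNA polymerases had 5 of 38 (13.2%), including polr2h (7.33-fold), polr2e (6.31-fold) and polr2f (4.78-fold) of RNA polymerase II, whose S copies had nearest summits at 82131, 76072 and 49259 bp.

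Shares in other transcription factor families had intervals that included 11.0%. Of 79 bHLH pairs 8 were L alone and 7 S alone. Of 23 hox pairs 2 were L alone (8.70%, interval 2.42 to 26.8%) and 4 S alone. The L-alone pairs were hoxa5 (5.34-fold) and hoxb6 (4.63-fold), and their S copies had summits at 1772 and 1078 bp. Of 15 sox pairs 1 was L alone (6.67%, upper limit 29.8%) and 4 S alone, and of 36 forkhead pairs 1 was L alone (2.78%, upper limit 14.2%) and 2 S alone. They were sox7 (8.61-fold), an endodermal and vascular regulator, and foxo4 (7.84-fold), with nearest S summits at 21191 and 73148 bp.

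Ion channel and neurotransmitter receptor genes had few end peaks, and those present were mostly at a single copy. Of 70 channel pairs 42 had no end peak, 9 had end peaks at both, 12 were L alone (17.1%) and 7 S alone. Among the 28 with any end peak, L alone made up 42.9% (interval 26.5 to 60.9%), beside 15.1% over all 5634 pairs with an end peak. S alone was also above its share, at 25.0% beside 12.0% over those 5634 pairs. Of 54 receptor pairs 30 had no end peak, 9 had end peaks at both, 9 were L alone and 6 S alone. Of those with an end peak, 37.5% were L alone and 25.0% S alone. The strongest were kcnk13 (12.3-fold), a two-pore potassium channel gene, and trpv4 (9.93-fold), an osmosensitive cation channel gene. Among the receptors grm2, for metabotropic glutamate signaling, reached 8.11-fold and adra2c 7.99-fold. The weakest were kcna2 (4.37-fold), kcns3 (4.30-fold), kcnf1 (4.27-fold), kcnj15 (3.86-fold) and kcnj4 (3.56-fold), with 6 to 9 fragments. Where few copies have end peaks, pairs with peaks at both are rarer, so 15.1% and 12.0% are not like backgrounds for these lists. Late organ genes, with 4 pairs having an end peak, had 50.0% of these at L alone. How far the shallow depth contributed to peaks being called at a single copy was not tested.

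**Figure D5:**
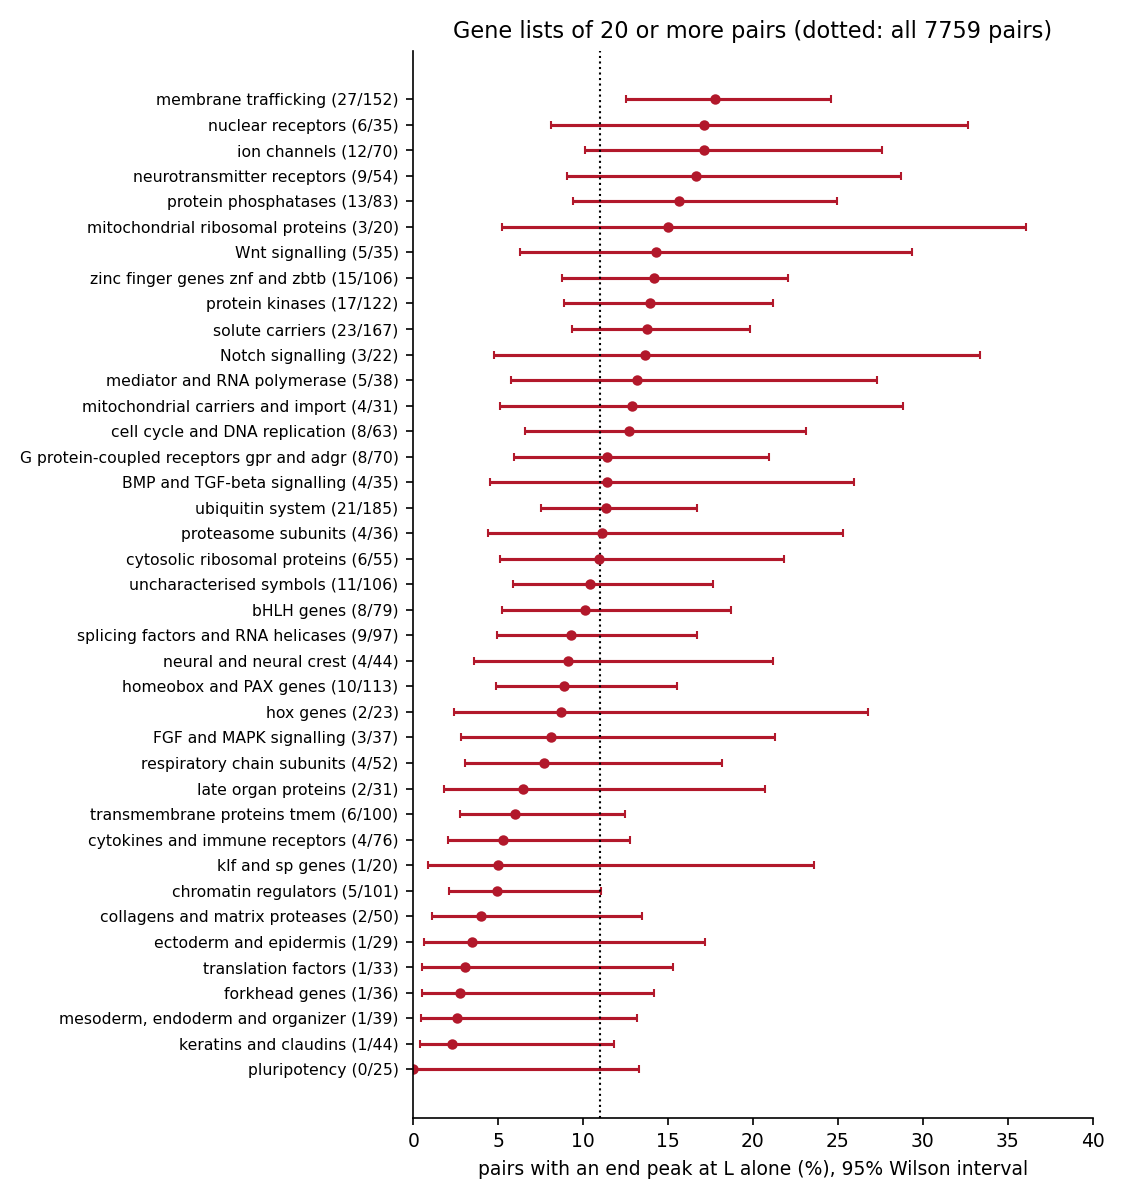
Share of pairs with an end peak at L alone, in percent, for each gene list with 20 or more pairs (L-alone and total pairs in brackets), with 95% Wilson intervals for counting error. The dotted line is the share over all pairs, 11.0%. Membrane trafficking (17.8%) is highest and pluripotency (0 of 25) lowest, and most intervals include the line.

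Gene length itself was not a criterion of the selection, but it was computed from the same annotated ends that placed the windows. A misplaced end can alter both, so the comparison is not independent of the selection. How far such ends contributed was not tested. Length was compared between classes over the 9 chromosome pairs by an exact permutation test that flips the signs of the differences (two-sided). The smallest p this test can give is 0.0039, and chromosome pairs are not biological replicates. Annotated lengths of the copies differed more in L-alone pairs than in pairs with end peaks at both. The mean absolute log2 ratio of lengths was 0.48 against 0.32, a difference of 0.16 ± 0.07 (SD over 9 chromosome pairs), higher on 9 of 9 (exact permutation p = 0.0039, adjusted p = 0.0156 over 4 tests). This absolute measure was added after the data had been seen. Lengths differed by at least 1.5 times in 25.5% of L-alone pairs (217 of 852) and in a larger share of S-alone pairs (189 of 674). The share was 21.1% for pairs with no end peak (449 of 2125) and 18.8% over all pairs. It was lowest, at 14.6%, for pairs with end peaks at both. Unequal lengths were therefore not particular to L-alone pairs. Pairs with no end peak were not included in the tests. L-alone and S-alone pairs did not differ detectably in the mean absolute log2 ratio (difference −0.03 ± 0.13, exact permutation p = 0.520).

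The direction of the length difference did not pass the test. The log2 ratio of L to S length exceeded that of pairs with end peaks at both by 0.04 ± 0.11 (SD, higher on 6 of 9 chromosome pairs, exact permutation p = 0.309, adjusted p = 0.520). Against S-alone pairs the difference was 0.03 ± 0.13 (higher on 5 of 9, exact permutation p = 0.445, adjusted p = 0.520). A curated transcript was listed for 49.6% of the members' L copies and 39.4% of their S copies. For pairs with end peaks at both the shares were 50.9% and 46.0%. An S peak inside or within 10 kb and at least as enriched as the L end peak was found for 24.4% of members whose lengths differed by at least 1.5 times and 25.4% of the other members. Among members with a −log10 q-value of at least 10 at L, the counts were 4 of 64 and 20 of 181. Of the 1393 pairs with lengths within 5%, 132 were L alone.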

How the data were processed

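According to the methods and processing notes, reads were mapped by the authors to X. laevis v10.1 (Bowtie2 2.4.2), confident alignments and short fragments were kept, stage 9 libraries were pooled, and MACS2 2.2.7.1 called peaks using CUT&RUN libraries without antibody as control. Reads that fit both subgenomes equally well are lost by this, so near-identical L and S sequence can lack a peak. The deposited list gives each peak a score, a fold enrichment (a ratio with a pseudocount), p- and q-values as −log10, and a summit offset, all the authors' values. Fragments at a summit were computed from the deposited fold enrichment and −log10 p-value (whole number within a relative tolerance of 0.0001). Fragments carry no molecular identifiers, so intervals cover counting error only.

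Gene ends came from a RefSeq table of the v10.1 assembly that gives no strand or exons. Pairs had exactly 1 .L and 1 .S protein-coding gene on matching chromosomes. Distances run from summits to either end. The scripts used Python 3.11.15, pandas 2.3.3, numpy 2.4.6 and SciPy 1.17.1, and were tested on simulated peaks with known states. Genes named were those with the highest L end peak, most distal peaks, largest differences between copies and most end peaks, up to 8 a list by enrichment, and those nearest the 1 kb limit. Genes given as examples of strong S peaks were chosen after their values were seen. The members and lists were chosen with earlier results of these data known. Alternatives were windows of 500 bp and 2 kb, a −log10 q-value limit of 10, peak overlap in place of summits, pairs with lengths within 5% and other distances. Planned comparisons of promoter and protein sequence were not run.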

Additional observations from a re-analysis of the deposited data

How the results depend on the processing

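The number of L-alone pairs was 960 with windows of 500 bp, 853 with 2 kb, 1048 when peaks at both copies needed a −log10 q-value of 10, 847 with overlap in place of summits and 734 without peaks at another gene's end, the last an alternative added after seeing the data. Of the 852 pairs, 782 remained L alone with 500 bp, 766 with 2 kb (86 gained an S end peak) and 835 with overlap. With the q-value limit on both copies 245 remained and 607 had no end peak left at either copy, so most of the 1048 pairs there were other pairs. The number moved to 245 when the L peak alone needed that q-value, 132 over the 1393 pairs with lengths within 5% and 406 without an S summit inside or within 10 kb (added after seeing the data), each by leaving pairs out. The share with an S summit within 10 kb, 45.3%, became 55.5% with 500 bp, 39.6% with 2 kb, 87.3% with the q-value limit on both copies and 27.8% within 5 kb. The share with more distal peaks at L, 48.6%, became 53.2% with 2 kb, 52.6% with the q-value limit on both copies, 52.7% with it at L, 37.8% within 10 kb and 52.8% within 100 kb. S summits were counted at any q-value, so S end peaks below the limit still counted in that first share. The 500 bp window let in pairs with S summits between 500 bp and 1 kb. The 2 kb window left out pairs with an S summit within 2 kb, and 5 kb is a narrower range than 10 kb. Shifts in the share with an S summit thus follow at least in part from the settings. The cause of the shifts in distal peaks was not tested. The length ratio relative to pairs with end peaks at both was 0.16 (exact permutation p = 0.0195) with the q-value limit at L, which selects on the strength of the L peak. Relative to S-alone pairs it was 0.17 (exact permutation p = 0.0430) with that limit, there also set on the S peak of S-alone pairs (196 left). With 500 bp that ratio was −0.0044. These p-values are unadjusted. The absolute length ratio relative to S-alone pairs was 2.7e-05 over pairs with lengths within 5%, and relative to pairs with end peaks at both 0.0008 there, since that choice removes unequal lengths. The absolute ratio was added after seeing the data. The other values kept their direction and side of the threshold.

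No paired analysis was possible because the only table used is a pooled list without replicates, and leaving out a replicate was impossible likewise. Comparisons of promoter similarity, CpG content and protein length were not run, as sequence was not used here. Depth limits all absences, since no peak had fewer than 5 fragments and 31.9% of members rested on 9 or fewer.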
